A study of Mus musculus with 18 samples.

Results

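The genes described here encode 10 integrin subunits that bind extracellular matrix or the latent form of TGF-beta: the alpha-v chain Itgav, the beta chains that pair with it (Itgb1, Itgb3, Itgb5, Itgb6 and Itgb8), and the alpha chains Itga5, Itga6, Itga8 and Itga11, which pair with the beta 1 chain. They were taken by symbol from the 54752 genes of a count table of mouse liver, with earlier results of these data known. All 10 were found and all 10 passed the filter on low counts, which left 21914 genes for testing.

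Total RNA depleted of ribosomal RNA was sequenced from the livers of 18 male C57BL/6 mice, 6 in each of 3 groups, treated for 12 weeks. The mice were 6 weeks old when bought. Control mice received corn oil intraperitoneally at 10 µl per g 2 times a week and water by mouth every day. Cirrhosis mice received 10% carbon tetrachloride (CCl4), a solvent toxic to hepatocytes, in corn oil at the same volume and schedule, with the same water. Cirrhosis-PTH mice received the same CCl4 injections and PTH by mouth every day, 0.25 mg for each g of body weight, prepared at 50 mg per ml. PTH here is the Chinese medicine Pien Tze Huang and has nothing to do with parathyroid hormone. No group received corn oil with PTH, so every PTH value comes from livers also exposed to CCl4. Corn oil was the carrier in all 3 groups.

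Integrins are cell surface receptors made of an alpha and a beta chain, and they link the matrix outside the cell to the actin cytoskeleton inside it. TGF-beta is secreted in an inactive complex with its latency-associated peptide, and integrins containing the alpha-v chain bind that peptide and release or expose the growth factor. In the liver, stellate cells that have become myofibroblasts are the main makers of scar collagen, and TGF-beta is a well known driver of that change.

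The sequence just before the start site is shown for Itgav and Itga5, whose RNA rose and fell by similar amounts, for the common partner that moved little (Itgb1), and for Itgb6, the chain that was scarcest in Control. The sequences are RefSeq promoters of GRCm38.p6, each given 5′ to 3′ on the strand of its gene, without any base that lies in an annotated exon. Itgav is on the plus strand at chr2:83724147-83724396, Itga5 on the minus strand at chr15:103366792-103367041, Itgb1 on the plus strand at chr8:128685404-128685653, and Itgb6 on the minus strand at chr2:60722644-60722853. Capitals mark matches on either strand to the letters searched, namely AP-1 (TGANTCA), TEAD (GGAATG), SMAD (CAGAC), SP1 (GGGCGG) and the TATA box (TATAAA).
Itgav: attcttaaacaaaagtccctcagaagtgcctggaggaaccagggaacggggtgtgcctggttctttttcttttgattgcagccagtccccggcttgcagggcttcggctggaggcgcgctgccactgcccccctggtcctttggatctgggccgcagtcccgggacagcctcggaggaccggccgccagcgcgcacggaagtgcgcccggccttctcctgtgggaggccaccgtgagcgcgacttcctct
Itga5: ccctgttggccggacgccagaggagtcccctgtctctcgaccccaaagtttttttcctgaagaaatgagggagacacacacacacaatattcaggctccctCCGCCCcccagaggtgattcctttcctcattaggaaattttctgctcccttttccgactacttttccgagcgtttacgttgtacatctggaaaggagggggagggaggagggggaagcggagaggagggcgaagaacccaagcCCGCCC
Itgb1: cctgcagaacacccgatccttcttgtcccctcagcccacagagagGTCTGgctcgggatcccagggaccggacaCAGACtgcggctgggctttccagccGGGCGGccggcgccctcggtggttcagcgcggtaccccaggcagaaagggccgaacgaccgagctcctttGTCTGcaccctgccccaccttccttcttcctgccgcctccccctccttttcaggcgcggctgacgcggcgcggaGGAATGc
Itgb6: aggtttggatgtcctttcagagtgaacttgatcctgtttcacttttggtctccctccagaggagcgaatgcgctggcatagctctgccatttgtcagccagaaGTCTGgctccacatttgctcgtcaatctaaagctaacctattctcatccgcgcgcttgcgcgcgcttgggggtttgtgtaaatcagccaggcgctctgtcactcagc

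Entries existed for 8 of the 10 members. Itgb6 had another entry, with its start at chr2:60673693, which is not shown. The Itgav stretch holds none of the searched letters and has a GC content of 64.4%. The Itga5 stretch, with a GC content of 55.6%, holds 2 SP1 matches. The Itgb1 stretch, with a GC content of 68.0%, holds 1 TEAD, 3 SMAD and 1 SP1 match, and the Itgb6 stretch, at 52.4%, holds 1 SMAD match. Over the 250 bases before the start, the AP-1 letters were in 0 of the 8 members and in 6.75% of 32851 promoters. The TEAD letters were in 1 of 8 members against 12.6% of promoters, and the SMAD letters in 3 of 8 (Itgb1, Itgb6 and Itgb8) against 42.2%. For Itga8 and Itgb8 an annotated exon reached the far end of the 250 bases, so the Itgb8 match may lie in an exon. Each member was counted once over its entries, whereas the share of promoters counts each entry. The SP1 letters were in 3 of 8 against 32.7%, and the TATA letters in 0 of 8 against 12.4%. The median GC content of all these promoters was 52.4%. A match is a run of letters and not a measured binding site.

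The libraries held 62482144 to 112294112 counts, of which 31.4% to 60.8% fell on loci that collect ribosomal RNA reads. Control replicates 7 and 8 had the fewest counts elsewhere. The labels give each library a number but no animal name, so p-values measure the spread between these samples. Hepatocyte transcripts were abundant in every library: 8 hepatocyte markers summed to between 32358 and 65834 counts-per-million (CPM, counts over the library size after TMM scaling, which sets libraries level on the bulk of their genes). The TMM factors differed by group, from 0.578 to 0.930 in Control and from 1.21 to 1.37 in Cirrhosis. In Cirrhosis-PTH they ran from 0.854 to 1.23, with replicates 6 (1.23) and 3 (1.12) the highest. In RNA from whole liver, a change in the number of cells of a type and a change in the RNA each cell makes cannot be told apart.

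Levels of different subunits were compared as CPM per kilobase of exon. Itgb1, the common beta chain, was the highest of the 10 in each group, at 32.1 ± 3.0 (mean ± SD, n = 6) in Control livers, 37.0 ± 2.8 in those of the Cirrhosis group and 31.3 ± 1.6 with PTH. Itgb5 came next, at 10.3, 14.8 and 12.7, and its range met neither neighbour's in any group. Itgav and Itga5 followed in Control at 3.28 and 2.82 and in Cirrhosis at 7.49 and 6.76. Itgav was above Itga5 in all 6 libraries of both groups, although their ranges overlapped.

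The one change of order among the higher-level subunits was Itga8, the alpha chain of the nephronectin receptor. It came at place 5 in Control, with 1.2 CPM per kilobase, and at place 5 in Cirrhosis, with 3.11. In Cirrhosis-PTH it came at place 3 with 4.85, above Itgav at 3.79 in 4 of 6 libraries, with overlapping ranges. Itgb3 and Itga6 stood at 0.932 and 0.299 in Control and at 1.43 and 1.31 in Cirrhosis. Their ranges were apart in Control and overlapped in Cirrhosis. Itgb8, Itgb6 and Itga11 were the 3 lowest in every group. In Cirrhosis they lay at 0.334, 0.270 and 0.194, and neighbours in that order overlapped.

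**Figure D1:**
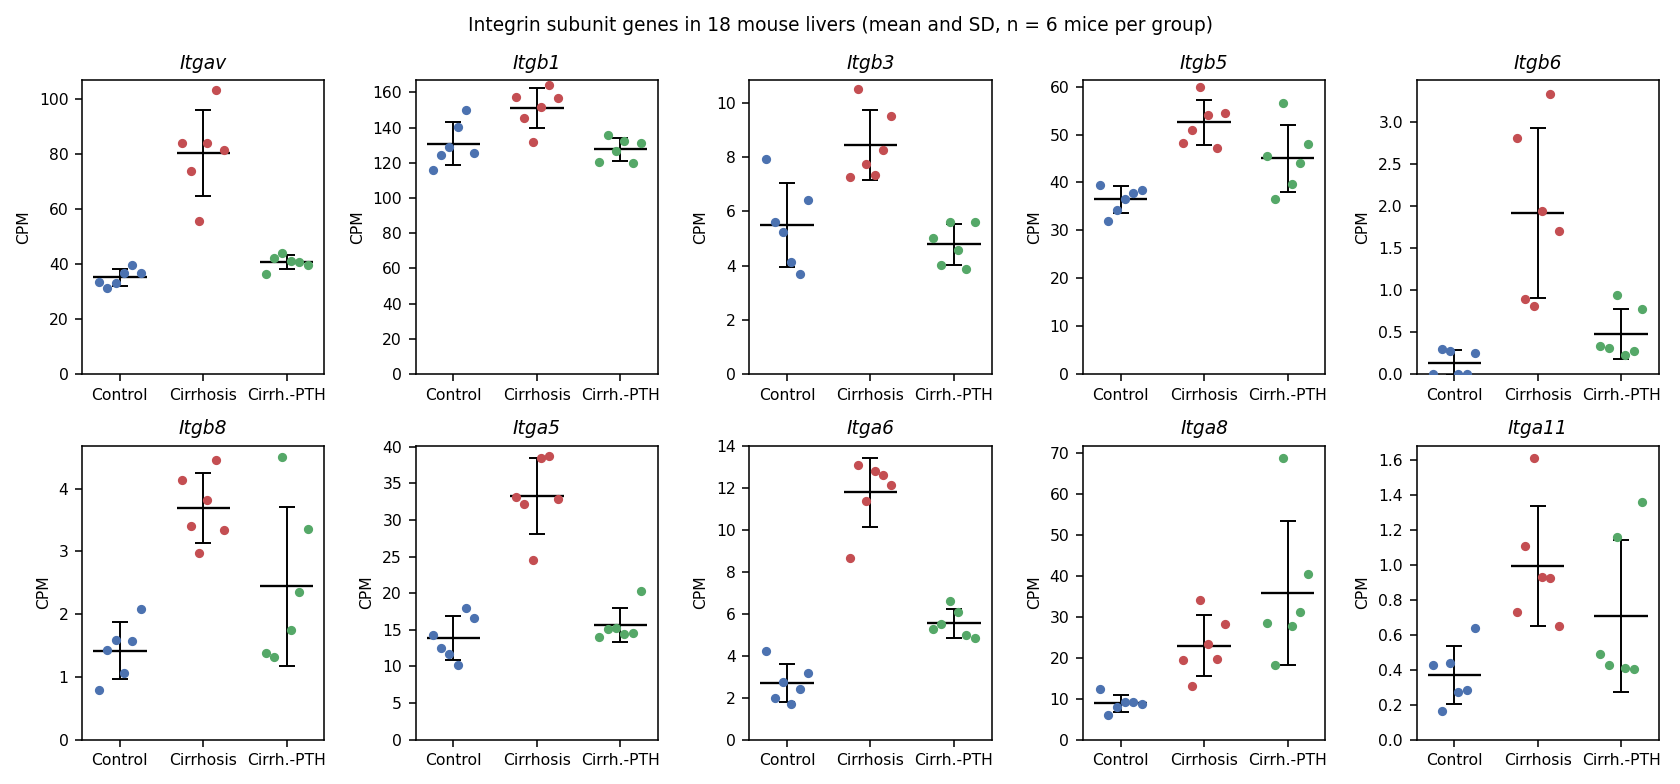
Level of each of the 10 subunits in every liver, in counts-per-million on linear axes that start at 0, with 1 point per library (6 per group) and the mean ± SD of each group. Itgav, Itga5 and Itga6 in Cirrhosis sit above every Control and Cirrhosis-PTH library, while the mean of Itga8 is highest in Cirrhosis-PTH, with overlap between the CCl4 groups.

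The first comparison asks how 12 weeks of CCl4 changed these subunits. All 10 rose in Cirrhosis against Control, by 1.15-fold for Itgb1 to 4.38-fold for Itga6 among those detected in every library, and by a fitted 14.7-fold for Itgb6. Of all genes tested, 25.5% were called higher and 25.0% lower in this comparison. For 8 members every Cirrhosis library lay above every Control library, which was the case for 15.6% of all genes. The median change of the members was 1.32 on the log2 scale, against 0.02 over all genes.

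Itgav encodes the alpha-v chain shared by the integrins that bind latent TGF-beta, vitronectin and osteopontin (ENSMUSG00000027087, GRCm38 chromosome 2, 83724397 to 83806916, plus strand). Its level ran from 31.3 CPM through a median of 35.1 to 39.6 in Control, and from 55.6 through 82.9 to 103 in Cirrhosis. The lowest Cirrhosis liver was above the highest Control liver. The change was 1.19 ± 0.10 on the log2 scale (± SE, edgeR quasi-likelihood test, Benjamini-Hochberg adjusted p = 6.89e-09). Gm13684 and Dnmt3l-ps1 lie on the opposite strand within the Itgav locus, and whether counting used strand is not given in the sources used here.

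Itgb6 encodes the epithelial partner of alpha-v, whose heterodimer is a known activator of latent TGF-beta (ENSMUSG00000026971, chromosome 2, 60598292 to 60722643, minus strand). It had 45 counts over the 6 Control libraries and none in Control replicates 1, 6 and 7, against 1269 counts over the 6 Cirrhosis libraries. Its level ran from 0 CPM through 0.125 to 0.298 in Control and from 0.815 through 1.82 to 3.33 in Cirrhosis. The groups did not overlap, and the change was 3.87 ± 0.76 (edgeR adjusted p = 0.000293). With so few Control counts, the size of that change depends on the small count added in the fit.

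Itgb8, the other beta chain known mainly for binding latent TGF-beta (ENSMUSG00000025321, chromosome 12, 119158022 to 119238802, minus strand), ran from 0.786 through 1.5 to 2.08 CPM in Control. In Cirrhosis it ran from 2.97 through 3.61 to 4.46. Every Cirrhosis liver was above every Control liver, and the change was 1.40 ± 0.28 (edgeR adjusted p = 0.000255).

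Itgb5, a vitronectin receptor chain (ENSMUSG00000022817, chromosome 16, 33829665 to 33949338, plus strand), ran from 32.1 through 37.2 to 39.5 CPM in Control and from 47.3 through 52.6 to 59.9 in Cirrhosis. The groups were apart, although the rise was only 0.53 ± 0.09 (edgeR adjusted p = 4.37e-05). Itgb3, the beta chain of the vitronectin receptor and, with Itga2b, of the platelet fibrinogen receptor (ENSMUSG00000020689, chromosome 11, 104608000 to 104670476, plus strand), ran from 3.70 through 5.41 to 7.93 in Control and from 7.26 through 8.02 to 10.5 in Cirrhosis. Its groups overlapped, and the change was 0.62 ± 0.16 (edgeR adjusted p = 0.00276). Itga2b, the platelet-specific chain, stood at 1.97 ± 0.187 CPM in Control and 2.1 ± 0.597 in Cirrhosis (log2 change 0.09, edgeR adjusted p = 0.693). Other platelet markers did move: of the 5 tested, Itga2b included, Pf4 and Ppbp were called higher and Gp1ba lower in Cirrhosis.

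Itgb1, the chain shared by most matrix receptors (ENSMUSG00000025809, chromosome 8, 128685654 to 128733200, plus strand), ran from 116 through 127 to 150.0 CPM in Control and from 132 through 154 to 164 in Cirrhosis. The groups overlapped, and its change of 0.21 ± 0.07 was the least of the 10 (edgeR adjusted p = 0.0181).

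The alpha chains that pair with beta 1 moved much further. Itga6, a laminin receptor chain (ENSMUSG00000027111, chromosome 2, 71745616 to 71858416, plus strand), ran from 1.69 through 2.58 to 4.23 CPM in Control and from 8.68 through 12.4 to 13.1 in Cirrhosis. The lowest Cirrhosis liver exceeded the highest Control liver, and the change was 2.13 ± 0.18 (edgeR adjusted p = 3.42e-09). Its locus overlaps 4 annotated noncoding genes, Gm13663, Gm17250, Gm13662 and Gm13739.

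Itga5, the alpha chain of the classical fibronectin receptor (ENSMUSG00000000555, chromosome 15, 103344286 to 103366763, minus strand), ran from 10.2 through 13.4 to 18.0 CPM in Control and from 24.5 through 33.1 to 38.7 in Cirrhosis. The groups were apart, with a change of 1.27 ± 0.13 (edgeR adjusted p = 1.23e-07). Fn1, its fibronectin ligand, did not pass the test: it stood at 2180 CPM on average in Control and 1870 in Cirrhosis (log2 change -0.22 ± 0.09, edgeR adjusted p = 0.0599). The Fn1 difference was called when Control replicate 1 (adjusted p = 0.0288) or Cirrhosis replicate 2 (adjusted p = 0.0102) was left out.

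Itga8 (ENSMUSG00000026768, chromosome 2, 12106632 to 12301922, minus strand) ran from 6.00 through 8.87 to 12.4 CPM in Control and from 13.0 through 21.5 to 34.0 in Cirrhosis. The groups were narrowly apart, with a change of 1.37 ± 0.29 (edgeR adjusted p = 0.000773). The antisense gene E030013I19Rik overlaps it. Npnt, which encodes its ligand nephronectin, was scarce, at 0.214 ± 0.070 CPM in Control and 0.587 ± 0.205 in Cirrhosis (log2 change 1.47 ± 0.61, edgeR adjusted p = 0.0498). Itga11, a collagen receptor chain of fibroblasts (ENSMUSG00000032243, chromosome 9, 62677826 to 62783982, plus strand), ran from 0.164 through 0.357 to 0.637 CPM in Control and from 0.651 through 0.928 to 1.61 in Cirrhosis. The groups just failed to touch, with a change of 1.44 ± 0.38 (edgeR adjusted p = 0.00301).

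**Figure D2:**
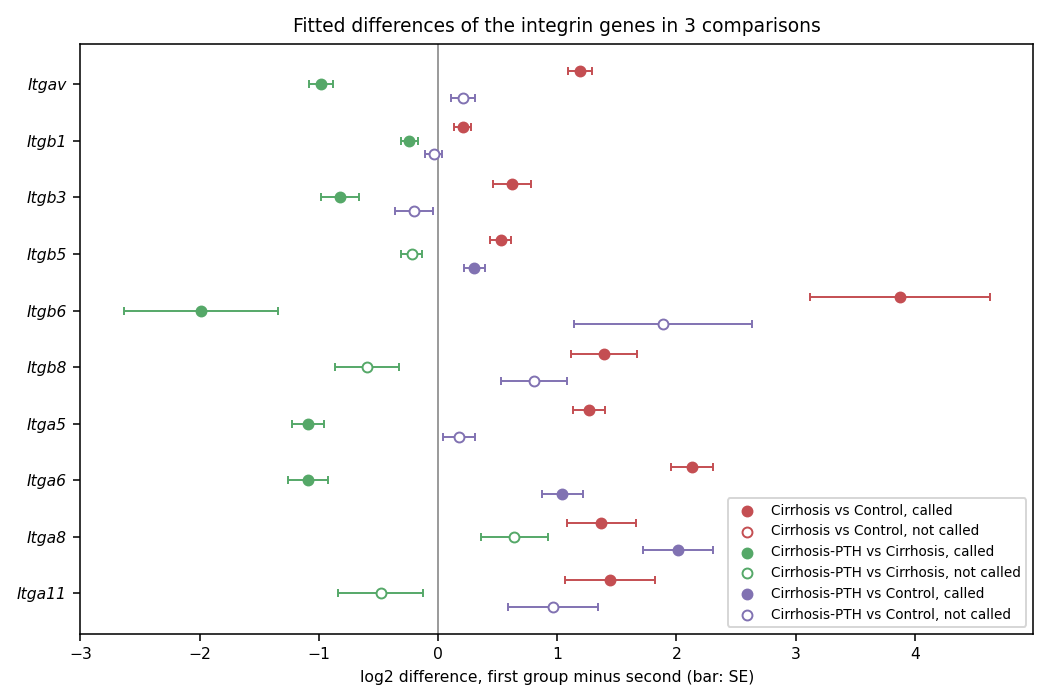
Fitted log2 change of each subunit with its standard error in the 3 comparisons, from the edgeR fit of all 18 libraries, filled where the Benjamini-Hochberg adjusted p is under 0.05. All 10 members lie above 0 in Cirrhosis against Control, and Itga8 is the only member above 0 in Cirrhosis-PTH against Cirrhosis, where it did not pass the test.

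Markers of several cell types moved with this comparison. The summed level of 10 stellate cell and myofibroblast markers was 187 to 245 CPM in Control and 442 to 590 in Cirrhosis, with 7 of 10 called higher and Hhip called lower. The sum of 10 cholangiocyte and ductular markers was 28.1 to 55.7 CPM in Control and 95.4 to 216 in Cirrhosis, with 8 called higher. The sum of 8 recruited macrophage markers was 15.1 to 28.7 CPM and 254 to 354, with all 8 called higher. The sum of 7 portal fibroblast and mesothelial markers was 4.17 to 12.2 CPM and 15.6 to 26.6, with 4 called higher.

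Neutrophil and proliferation markers were also higher, and their sums stand at the end. The hepatocyte sum was 49199 to 65834 CPM in Control and 32358 to 53514 in Cirrhosis, with 7 of 8 called lower. The endothelial sum was 345 to 387 and 365 to 444 CPM, and the platelet sum 2.94 to 3.92 and 3.76 to 7.18. Of the 9 endothelial markers, Pecam1, Stab1 and Vwf were called higher and Kdr lower. The part of these cell types in the integrin changes was not tested.

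The ratio of a chain to its partner within the same library needs no scaling between libraries. Of the 9 ratios compared, 7 differed between Cirrhosis and Control by a two-sided exact permutation test over 924 arrangements, adjusted over 27 tests. Itgb1 over Itgav fell by 0.96 on the log2 scale (1.89 ± 0.09 in Control, 0.93 ± 0.19 in Cirrhosis, exact permutation adjusted p = 0.00584). Itgb5 over Itgav fell by 0.65 (exact permutation adjusted p = 0.025, and 0.0621 without Control replicates 7 and 8). Itgav rose more than either of its more abundant partners.

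Itgb6 over Itgav rose by 4.04 (exact permutation adjusted p = 0.00584), a size that ran from 2.98 to 5.22 as the count added to avoid division by 0 went from 2 to 0.1. The ratio of Itgb8 to Itgav differed by 0.25 (-4.69 ± 0.48 and -4.43 ± 0.14, exact permutation adjusted p = 0.33), and that of Itgb3 to Itgav by -0.52 (exact permutation adjusted p = 0.0974). The latter was called without Control replicate 7 (-0.66, adjusted p = 0.0429). All 4 alpha chains rose relative to Itgb1: Itga6 by 1.97, Itga11 by 1.24, Itga8 by 1.13 and Itga5 by 1.07, with exact permutation adjusted p between 0.00584 and 0.0135.

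**Figure D3:**
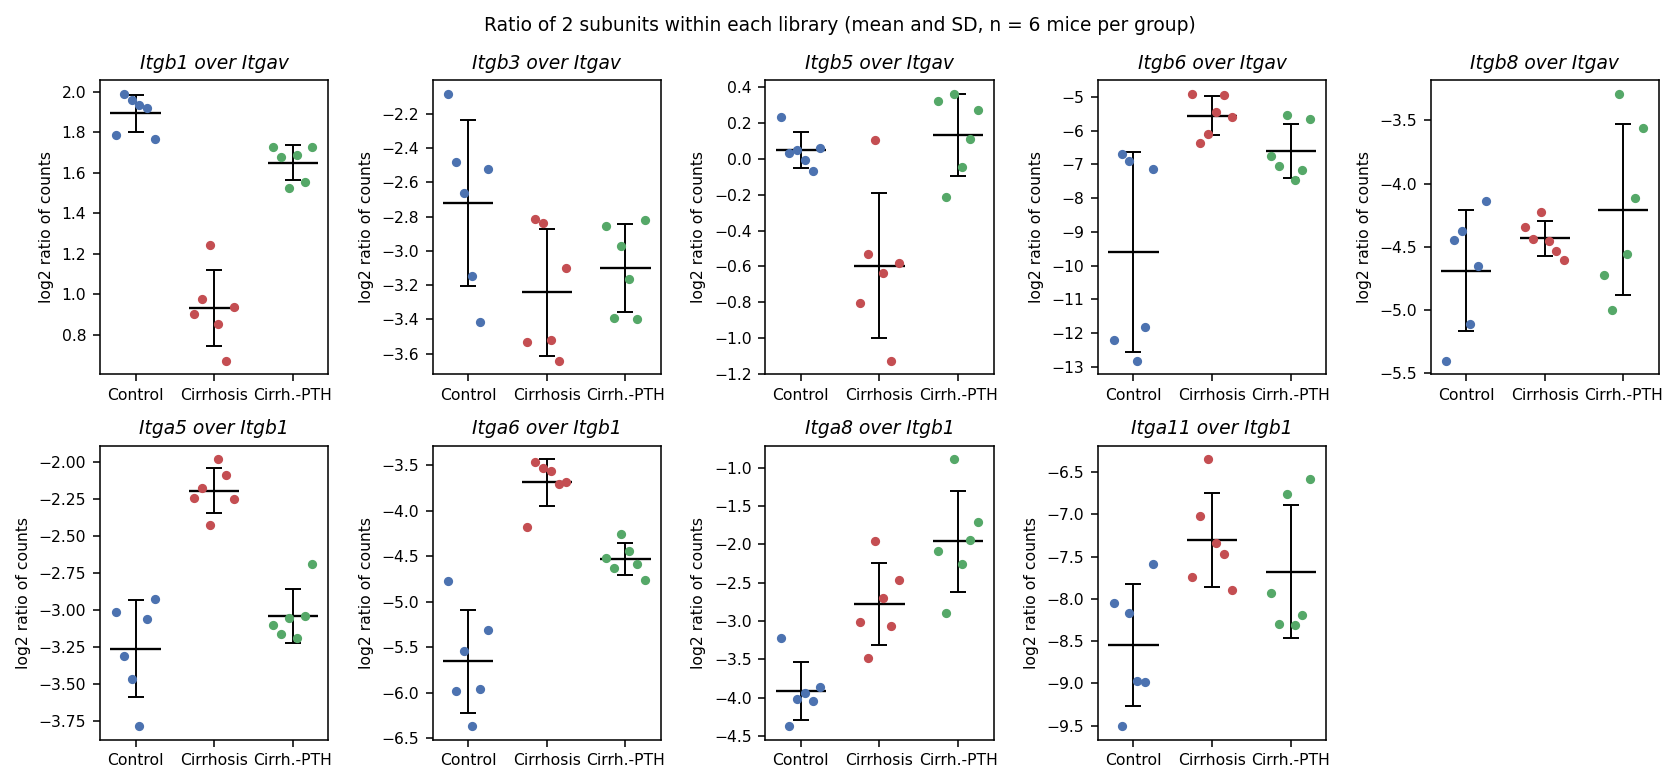
Log2 ratio of each subunit to its partner chain within a library, with 1 point per library and the mean ± SD of each group of 6. The Itgb1 to Itgav ratio is lowest in Cirrhosis, and the mean ratio of Itga8 to Itgb1 is highest in Cirrhosis-PTH.

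The second comparison asks what daily PTH changed in livers given CCl4. Of the 10 members, 6 were lower in Cirrhosis-PTH than in Cirrhosis: Itgav, Itga5, Itga6, Itgb3, Itgb6 and Itgb1. None was called higher, and 4 did not pass the test. Over all genes tested, 18.6% were called lower and 20.1% higher. For Itgav, Itga5, Itga6 and Itgb3 the libraries of the groups did not overlap, which held in that direction for 11.0% of all genes. The median change was -0.71 for the members and -0.00 for all genes.

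Itgav ran from 36.4 CPM through 40.9 to 44.0 in Cirrhosis-PTH, below the lowest Cirrhosis liver at 55.6. It fell by 0.98 ± 0.10 on the log2 scale (edgeR adjusted p = 1.86e-07). Itga5 ran from 14.1 through 14.9 to 20.4, again below every Cirrhosis liver, and fell by 1.09 ± 0.13 (edgeR adjusted p = 1.5e-06). Itga6 ran from 4.84 through 5.38 to 6.63 and fell by 1.09 ± 0.17 (edgeR adjusted p = 2.13e-05). All 6 livers were below the lowest Cirrhosis liver at 8.68.

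Itgb3 ran from 3.87 through 4.80 to 5.62 CPM in Cirrhosis-PTH and fell by 0.82 ± 0.16 (edgeR adjusted p = 0.000295), with no overlap. Itgb1 ran from 120 through 129 to 136 and fell by 0.24 ± 0.07, with overlapping groups (edgeR adjusted p = 0.0088). Itgb6 ran from 0.229 through 0.323 to 0.936 and fell by 1.99 ± 0.65, with overlapping groups (edgeR adjusted p = 0.0207). The Itgb6 call was lost without Cirrhosis replicate 5, the highest of its group (-1.76, edgeR adjusted p = 0.0536).

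Of the 4 members that did not pass, 3 had lower fitted values. Itgb5 ran from 36.6 through 44.8 to 56.6 CPM (-0.22 ± 0.09, edgeR adjusted p = 0.0555). It was called lower without Cirrhosis replicate 1, Cirrhosis replicate 5, Cirrhosis-PTH replicate 3 or both Control replicates 7 and 8 (edgeR adjusted p from 0.00617 to 0.0484), with other size factors (edgeR adjusted p = 0.0251), without the ribosomal RNA loci (edgeR adjusted p = 0.0402) and by DESeq2 (adjusted p = 0.0235). Itgb8 ran from 1.32 through 2.05 to 4.50 (-0.59 ± 0.27, edgeR adjusted p = 0.0881; DESeq2 adjusted p = 0.0496). Without Cirrhosis-PTH replicate 3 it was called lower (-0.86, edgeR adjusted p = 0.00879). Itga11 ran from 0.406 through 0.457 to 1.36 (-0.48 ± 0.36, edgeR adjusted p = 0.32).

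Itga8 ran from 18.3 through 29.7 to 68.6 CPM, higher on average than in Cirrhosis, with overlapping groups. The difference of 0.64 ± 0.28 did not pass (edgeR adjusted p = 0.084). It was called higher without Cirrhosis replicate 3 (0.79, edgeR adjusted p = 0.0412) or without Cirrhosis-PTH replicate 2 (0.77, edgeR adjusted p = 0.0308). Across the settings that left out 1 library, the adjusted p ran from 0.0308 to 0.263.

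Of the ratios, 4 of 9 differed between Cirrhosis-PTH and Cirrhosis. Itgb1 over Itgav rose by 0.72 and Itgb5 over Itgav by 0.73 (exact permutation adjusted p = 0.00584 and 0.0135). Itga5 over Itgb1 fell by 0.85 and Itga6 over Itgb1 by 0.84 (both exact permutation adjusted p = 0.00584). The ratio of Itga8 to Itgb1 differed by 0.82 in the other direction and did not pass (exact permutation adjusted p = 0.0621). That ratio was called without Cirrhosis replicate 3 (0.99, adjusted p = 0.0292) or Cirrhosis-PTH replicate 2 (1.01, adjusted p = 0.0209). Itgb6 over Itgav differed by -1.05 (exact permutation adjusted p = 0.0621) and was called without Cirrhosis replicate 2, Cirrhosis-PTH replicate 3 or Cirrhosis-PTH replicate 6 (adjusted p from 0.0312 to 0.0429).

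Markers of several cell types moved here as well. The stellate cell and myofibroblast sum was 210 to 415 CPM in Cirrhosis-PTH, with 8 of 10 markers called lower than in Cirrhosis and none higher. The recruited macrophage sum was 57.4 to 143 CPM, with 7 of 8 called lower. The cholangiocyte and ductular sum was 35.1 to 93.8 CPM, with Cldn4, Sox9 and Spp1 called lower. The portal fibroblast and mesothelial sum was 11.9 to 48.1 CPM, with Entpd2 and Thy1 lower and Gpm6a and Upk3b higher. The hepatocyte sum was 48976 to 54576 CPM, with 6 of 8 called higher. The endothelial sum was 374 to 394 CPM, with Cdh5, Pecam1, Stab1 and Vwf called lower and Kdr higher. The platelet sum was 3.18 to 4.75 CPM, with Pf4 called lower and Gp1ba higher. What part these cell types had in the integrin differences was not tested.

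The third comparison sets Cirrhosis-PTH against Control. Here 3 members were higher and 7 did not pass, while 6.34% of all genes were called higher and 2.48% lower. Itga8 was higher by 2.01 ± 0.29 (edgeR adjusted p = 0.000386) and Itga6 by 1.04 ± 0.17 (edgeR adjusted p = 0.000521), both without overlap of the libraries, which held for 3.07% of all genes. Itgb5 was higher by 0.31 ± 0.09 with overlapping groups (edgeR adjusted p = 0.0353). The Itgb5 call was lost when any of Control replicates 2, 3 and 6 or Cirrhosis-PTH replicates 1, 3, 5 and 6 was left out (edgeR adjusted p from 0.0507 to 0.107). The median of the members was 0.55, against 0.01 for all genes. Among the markers, 7 of 8 recruited macrophage genes and 4 of 7 portal fibroblast and mesothelial genes (Cd34, Gpm6a, Msln and Wt1) were called higher, as were Col1a1 and Pdgfrb of the 10 in the stellate cell list, in which Hhip was called lower, and Cftr and Krt19 of the 10 in the ductular list. Their part was not tested.

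Itgav (0.21 ± 0.10, edgeR adjusted p = 0.224), Itga5 (0.18 ± 0.13, adjusted p = 0.473), Itgb3 (-0.20 ± 0.16, adjusted p = 0.503) and Itgb1 (-0.04 ± 0.07, adjusted p = 0.825), in the edgeR test, did not pass. The sign of the Itgb1 value turned without Control replicate 7 or both Control replicates 7 and 8. Itgb6 (1.89 ± 0.75, edgeR adjusted p = 0.132), Itga11 (0.96 ± 0.38, adjusted p = 0.122) and Itgb8 (0.80 ± 0.28, adjusted p = 0.0758) had larger fitted differences and wide errors. Itgb8 was called without Control replicate 8, Cirrhosis-PTH replicate 1, Cirrhosis-PTH replicate 2 or both Control replicates 7 and 8 (edgeR adjusted p from 0.0358 to 0.0457), and by DESeq2 (adjusted p = 0.0368). Of the ratios, 3 of 9 differed: Itgb1 over Itgav was lower by 0.24, and Itga6 and Itga8 over Itgb1 were higher by 1.12 and 1.95 (all exact permutation adjusted p = 0.00584). Itgb6 over Itgav differed by 2.99 (exact permutation adjusted p = 0.0974) and was called without Control replicate 2 or 3 (adjusted p = 0.039 and 0.0468). Itgb3 over Itgav (-0.38, adjusted p = 0.17) was called without Control replicate 7 (-0.52, adjusted p = 0.0475).

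A single scale puts both contrasts side by side, with the Control mean at 0 and the Cirrhosis mean at 1 for each gene's log2 CPM. The contrasts share libraries, so this is a description. Cirrhosis-PTH lay at 0.18 ± 0.08 (SD over 6 libraries) for Itgav and 0.15 ± 0.15 for Itga5, close to Control. Its mean lay near the middle for Itgb8 (0.49 ± 0.50), Itga6 (0.50 ± 0.08), Itgb6 (0.55 ± 0.18), Itgb5 (0.56 ± 0.42) and Itga11 (0.58 ± 0.55). Single livers ran from 0.42 to 0.62 for Itga6 and from 0.37 to 0.81 for Itgb6. They ran from -0.03 to 1.21 for Itgb8, 0.01 to 1.22 for Itgb5 and 0.17 to 1.36 for Itga11, so not every liver was intermediate there. The Cirrhosis-PTH mean lay on the far side of Control for Itgb1 (-0.15 ± 0.35) and Itgb3 (-0.26 ± 0.36), and beyond Cirrhosis for Itga8 (1.43 ± 0.48). The narrow spread of Itga6 and Itgav contrasts with the wide one of Itgb8 and Itga11.

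The high values within Cirrhosis-PTH were often in the same livers. Cirrhosis-PTH replicate 3 had the highest value of its group for 6 of the 10 members and was among the top 2 for 9. Replicate 6 was highest for 3 and among the top 2 for 7. Itgb8 stood at 4.50 and 3.35 CPM in replicates 3 and 6, against 1.32 to 2.35 in the other 4 livers. Itga8 stood at 68.6 and 40.3, against 18.3 to 31.1. Itga11 stood at 1.16 and 1.36 and Itgb6 at 0.936 and 0.781, against at most 0.488 and 0.334 in the other livers.

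Genes of scar and bile duct were also high in those livers. Col1a1, a collagen of scar tissue, was at 136 CPM in replicate 3 and 81.4 in replicate 6, against 24.8 to 44.0 in the others. Krt19, a bile duct keratin, was at 3.78 and 2.16 CPM against 0.667 to 1.3. Spp1, which encodes the integrin ligand osteopontin, was at 65.2 and 42.2 CPM against 17.9 to 31.0. Itgb1 did not share this pattern, with replicates 3 and 6 at places 4 and 3 of 6, for Itgav replicate 6 was at place 5, and for Itga6 it was the lowest of the 6.

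**Figure D4:**
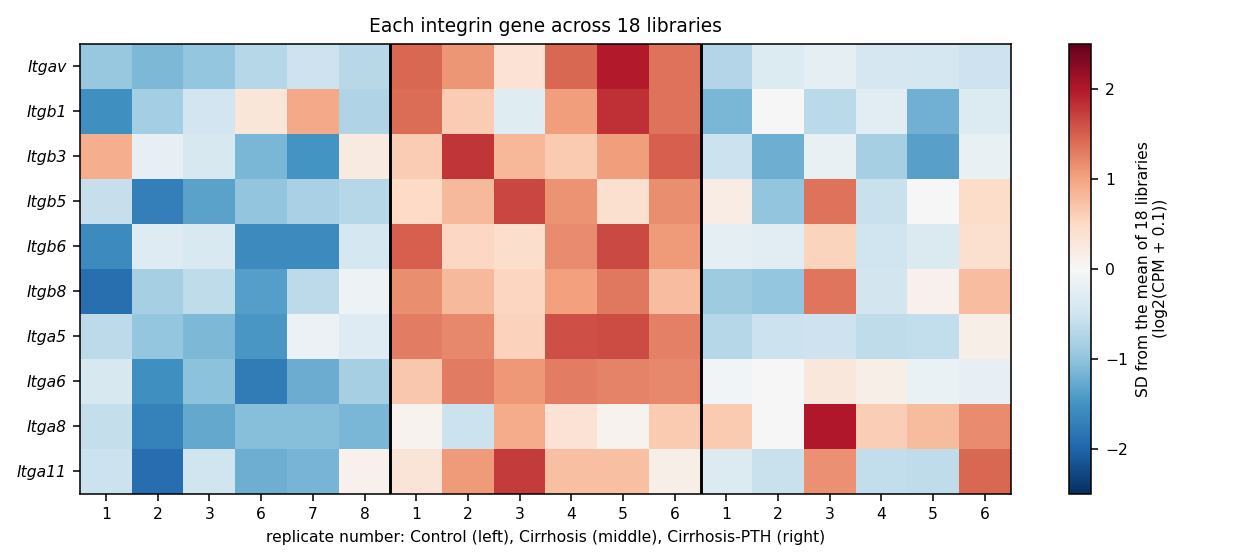
Level of the 10 subunits (rows) in each of the 18 livers (columns, by group), taken as log2(CPM + 0.1) and shown in standard deviations from the mean of that gene over all libraries. Within Cirrhosis-PTH, replicates 3 and 6 stand higher than the other 4 livers for Itgb6, Itgb8, Itga8 and Itga11, and the row of Itga6 is even.

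How the subunits varied from liver to liver was described by the Pearson correlation of log2 CPM over the 18 libraries after the mean of each group had been subtracted. All points share the scaling of their library, so these values are descriptive. The 45 pairs of members, those with the scarce Itgb6 and Itga11 included, had a median of 0.21, with 31 above 0. The lowest was -0.53 between Itgb1 and Itgb3 and the highest was 0.88 between Itgb5 and Itga8. Itgav and Itgb1 reached 0.76 and Itgb6 and Itgb8 reached 0.63.

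Among all genes of sufficient level, those most like each member were named by the same measure. Itgb8 varied most like Pkd2 (0.92) and Bicc1 (0.92), genes known from cystic kidney disease and expressed in bile duct epithelium, and Spp1 (0.88). Itga8 varied most like Mamdc2 (0.88), Itgb5 (0.88) and Papln (0.86), and Itgb5 like Adgrl1 (0.91), Mamdc2 (0.91) and Arvcf (0.90). Itgav varied most like Cd2ap (0.93), an actin adaptor, Rnd3 (0.91) and Cep170 (0.90). Itgb1 was most like Paip1 (0.89), Mtdh (0.88) and Tab2 (0.87), Itga5 like Ncln (0.85), Morf4l2 (0.84) and Tax1bp3 (0.84), and Itgb3 like Esyt1 (0.85), Cfap43 (0.84) and Brd9 (0.84). For Itga6 the closest were lower, at 0.79 for Soga1 and 0.76 for both Adgrg3 and Akr1b10. Itgb6 and Itga11 lay below the mean level set for this search over all genes.

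The rest of the integrin family, 17 subunits, showed 11 higher and 2 lower in Cirrhosis against Control, with a median of 1.07. Chains of leukocyte integrins were among them. Itgax, a chain of macrophages and dendritic cells, rose by 3.53 ± 0.22, Itga4, the lymphocyte and monocyte homing chain, by 1.63 ± 0.14, and Itga9, a tenascin and osteopontin receptor chain, by 0.92 ± 0.08 (edgeR adjusted p at most 1.3e-08). The 2 that fell were Itga7, a laminin receptor chain of muscle, and Itgb2l. Protein-coding genes on the opposite strand overlap some of the loci named here: Cerkl at Itga4, Mettl7b at Itga7 and Igsf5 at Itgb2l. In Cirrhosis-PTH against Cirrhosis 9 were lower (median of the list -0.62), among them Itgax (-1.69 ± 0.20) and Itgal (-1.01 ± 0.12), and Itga7 was the 1 that was higher (0.35 ± 0.12). Against Control, Itgax, Itga4, Itga9 and Itgam were higher in Cirrhosis-PTH (median of the list 0.30). That count of 4 fell to 2 without Control replicate 2, 3 or 7 or Cirrhosis-PTH replicate 6, and rose to 7 without Control replicate 8 or both Control replicates 7 and 8.

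The latent TGF-beta complex, the cargo of the alpha-v integrins, had 9 of 11 genes higher and 1 lower in Cirrhosis against Control, with a median of 1.61. Tgfb1, the main isoform, rose from 7.74 to 15.5 CPM on average (1.01 ± 0.18, edgeR adjusted p = 6.63e-05). Tgfb2, whose latency peptide lacks the integrin binding motif of the others, rose by 3.51 ± 0.37 from 0.566 CPM, and Tgfb3 by 2.82 ± 0.33 from 1.09 CPM. The protein-coding gene Ttll5 overlaps the Tgfb3 locus on the opposite strand, and the use of strand in counting is not known. Thbs1, which encodes thrombospondin 1, an activator of latent TGF-beta that does not need integrins, rose by 5.17 ± 0.43 and ran from 29.8 through 105 to 154 CPM in Cirrhosis. Nrros, which anchors latent TGF-beta on macrophages, rose by 1.61 ± 0.11. The gene that fell was Furin, the protease that cleaves the TGF-beta precursor (-0.48 ± 0.07).

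In Cirrhosis-PTH against Cirrhosis 6 of the 11 were lower (median -0.90) and Furin was higher (0.35 ± 0.07). Tgfb1 fell by 1.09 ± 0.18 (edgeR adjusted p = 4.05e-05), Nrros by 1.31 ± 0.11 and Thbs1 by 3.36 ± 0.39. Tgfb2 fell by 1.36 ± 0.33 (edgeR adjusted p = 0.00239) and Tgfb3 by 0.90 ± 0.30 (edgeR adjusted p = 0.0226). The Tgfb3 call was lost without Cirrhosis-PTH replicate 2 (edgeR adjusted p = 0.0527) or 5 (edgeR adjusted p = 0.0502). Against Control 7 of 11 were higher (median 1.15), including Ltbp2, a latent TGF-beta binding protein relative (3.65 ± 0.48), Tgfb2 (2.15 ± 0.36) and Tgfb3 (1.93 ± 0.32). Tgfb1 was not among them (-0.08 ± 0.18, edgeR adjusted p = 0.842), and its sign turned without Control replicate 8, Cirrhosis-PTH replicate 6 or both Control replicates 7 and 8.

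Of 24 tested matrix ligands, 17 were higher and 4 lower in Cirrhosis, with a median of 1.53. Tnc, which encodes tenascin C, rose by 4.55 ± 0.28 from 1.99 CPM to 45.6, Fbn1, the microfibril protein that holds latent TGF-beta, by 2.41 ± 0.16, Spp1 by 2.45 ± 0.32 and Nid1, a basement membrane linker, by 2.29 ± 0.12. Those that fell were Vtn, Lama1, Lama3 and Adam9. Vtn encodes vitronectin, the hepatocyte-made ligand of alpha-v integrins, and fell by 0.60 ± 0.09 from 1080 CPM to 710 (edgeR adjusted p = 1.26e-05). Itgav and this ligand moved in opposite directions.

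In Cirrhosis-PTH against Cirrhosis 13 ligands were lower and 3 higher, with a median of -0.97. Tnc fell by 3.33 ± 0.26, Spp1 by 1.64 ± 0.31, Nid1 by 1.57 ± 0.11 and Lamc1, a laminin chain common to most laminins, by 1.02 ± 0.11. Vtn was higher by 0.58 ± 0.09 (edgeR adjusted p = 2.68e-05), as were Lama3 and Lamb3, chains of the epithelial laminin bound by the alpha 6 integrins. The Lamb3 locus overlaps the protein-coding genes Hsd11b1 and G0s2 on the opposite strand, and the use of strand in counting is not known. Fn1 did not pass in this comparison (-0.07 ± 0.09, edgeR adjusted p = 0.585). Against Control, 11 ligands were higher and none lower (median 0.65), including Lama2 (1.55 ± 0.24), Fbn1 (1.27 ± 0.16) and Nid1 (0.72 ± 0.11), and Spp1 did not pass (0.81 ± 0.31, edgeR adjusted p = 0.118; 1.14 and 0.0475 without Control replicates 7 and 8). For Fn1 the value against Control was -0.29 ± 0.09 (edgeR adjusted p = 0.0565), which was called without Control replicate 1 or Cirrhosis replicate 2 (edgeR adjusted p = 0.0331 and 0.0311), with only the 12 libraries compared (edgeR adjusted p = 0.0393) and by DESeq2 (adjusted p = 0.016).

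Of the 30 genes for adaptors and kinases that join integrin tails to actin, 16 were higher and 9 lower in Cirrhosis, with a median of 0.28. Over all genes tested, 25.5% were called higher and 25.0% lower, so the share of lower calls in the list was near that of all genes. Lims1, which encodes the PINCH1 adaptor, rose by 1.10 ± 0.09, whereas its relative Lims2 fell by 0.89 ± 0.10. Kank1, a talin-binding protein, fell by 0.82 ± 0.08 and Tns2, a tensin, by 0.66 ± 0.06. In Cirrhosis-PTH against Cirrhosis 15 were lower and 8 higher, with a median of -0.25, where 18.6% of all genes were called lower and 20.1% higher. Lims1 fell by 0.76 ± 0.08, and Lims2 (0.86 ± 0.10) and Tns2 (0.53 ± 0.06) were higher. Against Control 4 were higher (Flna, Lims1, Src and Tns3) and 3 lower: Fermt2, which encodes kindlin 2 (-0.51 ± 0.07), Bcar1 (-0.39 ± 0.07) and Kank1 (-0.33 ± 0.07). The Kank1 call was lost without Control replicates 7 and 8 (edgeR adjusted p = 0.0725).

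Of 15 genes listed by hand as TGF-beta targets, 14 were higher and none lower in Cirrhosis, with a median of 1.43. Examples are Pmepa1, a feedback inhibitor (2.02 ± 0.22), Ctgf, which encodes a matricellular growth factor (1.84 ± 0.17), and Skil, a SMAD corepressor (1.43 ± 0.13). In Cirrhosis-PTH against Cirrhosis 11 were lower and none higher, with a median of -0.99. Tgif1, a SMAD corepressor, fell by 1.34 ± 0.14 and Skil by 1.04 ± 0.12. Against Control 5 were higher (median 0.29): Bambi, a decoy receptor (1.11 ± 0.25), Pmepa1 (1.05 ± 0.22), Ctgf, Ltbp2 and Col1a1. The count was 8 without Control replicates 7 and 8. Ltbp2 belongs also to the latent complex and Col1a1 also to the ligands and the stellate cell markers, so these lists are not separate evidence.

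**Figure D5:**
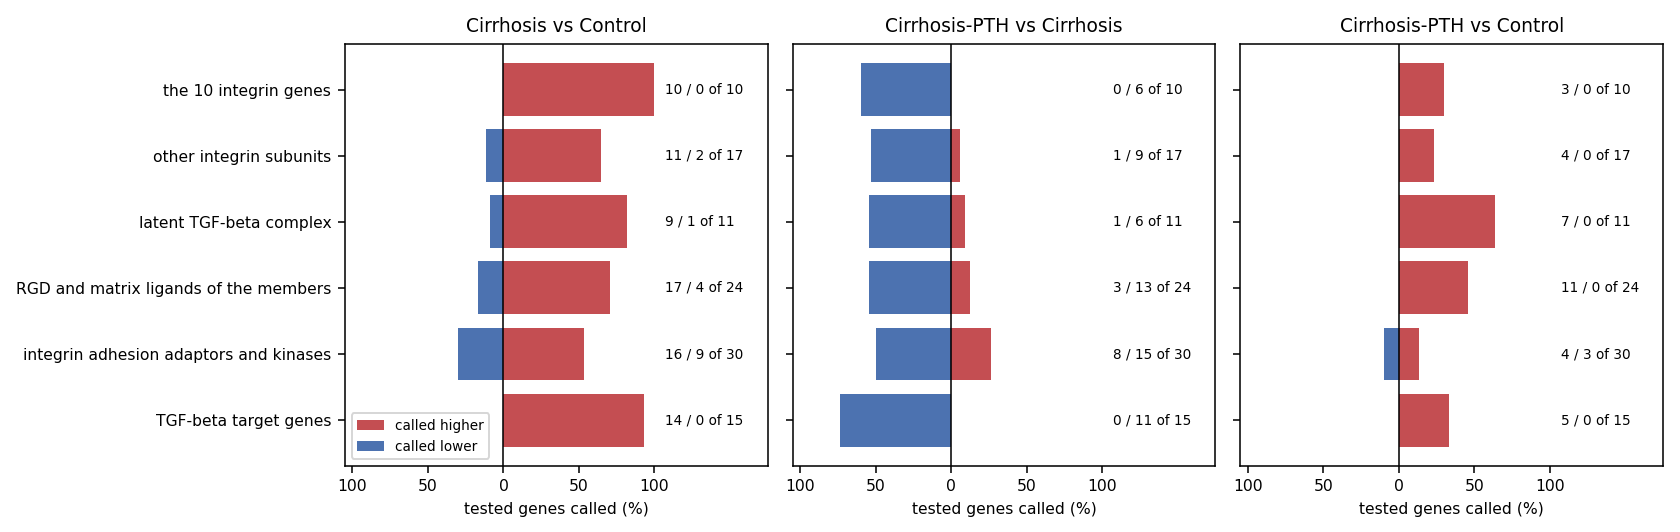
Share of tested genes called higher (right) and lower (left) in the members and in each list, in percent, for the 3 comparisons, with the counts printed beside the bars. The 10 members are all on the higher side in Cirrhosis against Control, while the adaptors and kinases lie on both sides. Of all genes tested, 25.5% were called higher and 25.0% lower in that comparison.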

How the data were processed

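The authors deposited raw counts per gene, 1 column for each of the 18 libraries, and every column matched the title of 1 sample. The submitters' processing notes name, without roles, Trim Galore, cutadapt 4.2, HISAT2 2.2.1, Bowtie2, Bowtie 1.3.1, StringTie 2.1.5 and the build GRCm38. The annotation release and the use of strand in counting are not given in the sources used here. Gene positions and exon lengths were taken from GENCODE vM21 (GRCm38).

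The members and the gene lists were chosen with earlier results of these data known. From the deposited counts, genes were kept by edgeR's filterByExpr, libraries were scaled by TMM (factors from 0.578 to 1.37), and 1 model of 3 groups was fitted to all 18 libraries with edgeR 4.0.16 in R 4.3.3 (robust quasi-likelihood F-test, two-sided, Benjamini-Hochberg over 21914 genes, threshold 0.05). Library sizes included the ribosomal RNA loci. Counts-per-million used a prior count of 2 where a log2 value was needed. Subunit ratios were log2 of (count + 0.5) over (partner count + 0.5), compared by two-sided exact permutation tests (27 tests, smallest possible p = 0.0022). The text names all 10 members, the 3 genes of each list with the smallest p in each comparison, Tgfb1, Tgfb2, Tgfb3, Fn1, Vtn and Spp1, and for likeness the 3 closest genes; a few results that this rule would name are not reported here. Itga2b, Npnt, Furin, the genes of counts of 5 or fewer and the marker genes were added after their values were seen. The fit was tested on simulated counts. DESeq2 1.42.0 and the other settings of the closing section were alternatives. Markers of 17 cell types were summed, and the lists not described in the report (smooth muscle, Kupffer cell, neutrophil, T and natural killer cell, B and plasma cell, erythroid, proliferating cell, exocrine pancreas, adipocyte, skeletal muscle) are given at the end.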

Additional observations from a re-analysis of the deposited data

Results flagged for a closer look

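In 57 groups of 6 values (10 members and 9 ratios in 3 groups), a sample was set apart by Dixon's test at its 95% critical value, which chance does in about 1 of 20 groups. Itga5 stood at 20.4 CPM in Cirrhosis-PTH replicate 6, against 14.1 to 15.3 in the other 5 livers. In the same library the log2 ratio of Itga5 to Itgb1 was -2.69, against -3.19 to -3.04. The log2 ratio of Itga6 to Itgb1 was -4.18 in Cirrhosis replicate 1, against -3.70 to -3.47 in the other 5 livers.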

How the results depend on the processing

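Each of 26 fits (the reported one, 18 that left out 1 library, and others without Control replicates 7 and 8, with RLE size factors, with DESeq2, without the low-count filter, without the ribosomal RNA loci, with only the 12 libraries compared, and with a replicate block) gave all member results again. The direction and side of the threshold were kept in 721 of 750 alternatives for the members and 557 of 567 for the ratios. Leaving out 1 library, the number of members called ran from 10 to 10 in Cirrhosis against Control, from 6 to 8 in Cirrhosis-PTH against Cirrhosis and from 2 to 4 in Cirrhosis-PTH against Control. In that last comparison the count of other integrin subunits was 4, ran from 2 to 7 with 1 library left out, and was 7 without Control replicates 7 and 8, and the count of TGF-beta targets was 5 and became 8 without those replicates. Signs turned for values near 0 in Cirrhosis-PTH against Control. With 1 library left out, Itgb1 ran from -0.0682 to 0.0075 (its place between the groups from -0.38 to 0.035), Tgfb1 from -0.166 to 0.059 and Vtn from -0.033 to 0.033. Without Control replicates 7 and 8, Itgb1 was 0.031, Tgfb1 0.23 and Vtn 0.028, and without the filter Vtn was 0.0017. DESeq2 called Itgb8 in both comparisons with Cirrhosis-PTH (adjusted p = 0.0496 and 0.0368) and Itgb5 in Cirrhosis-PTH against Cirrhosis (adjusted p = 0.0235). The cause was not tested.

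Replicate numbers did not pair the samples: the correlation of same-numbered libraries ran from -0.06 to 0.05, and none was the closest of its library. With the replicate block the genes called over the whole table were 9526, 8219 and 1354, against 11073, 8464 and 1932. The block took the Itgb6 call in Cirrhosis-PTH against Cirrhosis (-2.11, adjusted p = 0.0573) and gave those of Itgb5 (-0.23, adjusted p = 0.0455) and Itga8 (0.60, adjusted p = 0.0286). Against Control it left 3 adaptors called in place of 7, took Itga9 (adjusted p = 0.0749) and Kank1 (adjusted p = 0.103), and turned the sign of Tgfb1 (0.23) and Vtn (0.025).

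Depth limits the scarce members: Itgb6 had 0 to 20 counts in a Control library, Itga11 11 to 30 and Itgb8 55 to 104.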

Other observations

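Immune and other cell type markers outside the comparisons above are given as summed CPM, from the lowest to the highest library of a group. Neutrophil markers were at 2.17 to 8.26 in Control, 16.7 to 132 in Cirrhosis and 3.43 to 12.7 in Cirrhosis-PTH, with Mmp8 at 0 in all Control libraries. Of the 6 neutrophil markers, 5 were called higher in Cirrhosis than in Control and the same number lower in Cirrhosis-PTH than in Cirrhosis (S100a8, S100a9, Csf3r, Mmp8 and Retnlg in each case). Proliferation markers were at 4.64 to 10.3, 16.4 to 30.7 and 8.64 to 15.6, with 4 of 5 called higher in Cirrhosis than in Control. B and plasma cell markers were at 2.71 to 11.4, 7.85 to 19.1 and 6.00 to 16.0, and 4 of 6 were called higher in Cirrhosis. T and natural killer cell markers were at 2.01 to 3.88, 3.77 to 5.19 and 2.90 to 5.03, with Ncr1 at 0 in all Control libraries.

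Kupffer cell markers were at 138 to 248, 143 to 384 and 87.3 to 177, with Adgre1 and Cd5l called higher and Clec4f and Timd4 lower in Cirrhosis than in Control. Smooth muscle markers were at 106 to 133, 83.4 to 125 and 97.6 to 148, and erythroid markers at 222 to 645, 93.1 to 549 and 211 to 456. Although the smooth muscle sums overlapped, Lmod1, Myh11 and Smtn were called higher and Mylk lower in Cirrhosis than in Control. In Cirrhosis-PTH against Cirrhosis, Myh11 and Smtn were called lower and Mylk higher. Exocrine pancreas markers were at 3.39 to 9.10, 1.12 to 9.08 and 1.48 to 3.10, with Prss2, Cpa1 and Pnlip at 0 in all Control and Cirrhosis-PTH libraries. Adipocyte markers reached at most 1.26, 0.155 and 0.238, with Lep at 0 in all libraries of the 3 groups, and skeletal muscle markers at most 0.793, 3.62 and 0.334.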
